A study of Rattus norvegicus with 10 samples.

Results

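Hexose transporters of the nephron were followed in late fetal rat kidney through 7 genes, the sodium-coupled transporters Slc5a1 and Slc5a2 and the facilitative transporters Slc2a1 to Slc2a5. Every probe set whose single symbol in the platform annotation was one of these genes was taken, which found all 7, of 10412 genes with such a symbol, on 9 of 15923 probe sets; Slc2a3 and Slc2a4 had more than one each. Each of 10 kidney samples, collected at gestational day 22, had its RNA hybridised to a 1-colour Affymetrix array. In the insulin implant group (replicates 6 to 10), growth-restricted fetuses came from Wistar mothers of 200 to 280 g on a normal diet, made hyperinsulinemic by a 2 mm sustained-release insulin implant under the skin a week before mating and again a week after it. In the normal group (replicates 1 to 5), mothers received the regular diet, and the labels used here name no strain and no sham implant for them. They name no litter, mother or fetal sex for any sample, so the p-values measure the spread between these samples, which may in part be technical, and fetuses that shared a mother would make them too small.

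In the nephron, filtered glucose is recovered in the proximal tubule. Slc5a2 encodes SGLT2, the high-capacity cotransporter of the early segment, and Slc5a1 encodes SGLT1, the high-affinity cotransporter of the late segment; both use the sodium gradient across the brush border. Glucose then leaves the cell on the blood side through the facilitative carriers GLUT2 (Slc2a2) and GLUT1 (Slc2a1). GLUT3 (Slc2a3) is best known from neurons, GLUT4 (Slc2a4) is the insulin-responsive carrier of muscle and fat, and GLUT5 (Slc2a5) carries fructose in the small intestine and the tubule.

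RefSeq promoter entries of the GRCr8 build were found for 5 of the 7 genes, and the 250 bases before the annotated start are given here for 3 of them: Slc5a2 and Slc2a2, which had the smallest p-values below, and Slc2a1, whose signal varied most between normal arrays among the genes that passed the filter. They lie at chr1:192277371-192277620, plus strand for Slc5a2, chr2:113540120-113540369, plus strand for Slc2a2 and chr5:138002272-138002521, plus strand for Slc2a1. Capitals mark matches, on either strand, to the 3 motifs searched.
Slc5a2: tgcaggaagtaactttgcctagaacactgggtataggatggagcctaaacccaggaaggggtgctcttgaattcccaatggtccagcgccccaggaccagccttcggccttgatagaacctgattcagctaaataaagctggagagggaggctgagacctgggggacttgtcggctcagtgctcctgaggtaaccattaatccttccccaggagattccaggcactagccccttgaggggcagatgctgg
Slc2a2: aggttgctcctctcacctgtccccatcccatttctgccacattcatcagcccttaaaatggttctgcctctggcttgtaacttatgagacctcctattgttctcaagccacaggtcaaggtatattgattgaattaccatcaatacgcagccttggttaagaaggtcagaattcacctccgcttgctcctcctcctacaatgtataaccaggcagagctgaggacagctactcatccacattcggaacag
Slc2a1: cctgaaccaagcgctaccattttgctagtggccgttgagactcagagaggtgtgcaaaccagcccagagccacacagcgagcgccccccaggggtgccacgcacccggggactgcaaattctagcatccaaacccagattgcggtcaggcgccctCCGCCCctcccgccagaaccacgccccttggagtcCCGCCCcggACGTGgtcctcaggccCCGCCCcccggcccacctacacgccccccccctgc
The motifs were TATAAA, the TATA box, which was found in 12.9% of 33469 rat promoters of the same length, GGGCGG, the GC box (30.5%), and ACGTG, the core of the hypoxia response element (16.6%). The Slc2a1 promoter held the GC box at 3 places and ACGTG at 1 place, and the motifs did not overlap there. The Slc5a2 and Slc2a2 stretches held none of the 3 motifs in these exact letters. Base composition differed too: G and C made up 68.4% of the Slc2a1 stretch, with 17 CpG dinucleotides, against 54.8% with 3 CpG in Slc5a2 and 47.2% with 3 CpG in Slc2a2, and the median rat promoter had 51.2% and 5. Of the other matched genes, Slc5a1 had 62.8% G and C and ACGTG on both strands, as the overlapping letters CACGTG, and Slc2a5 had 50.8% and no match.

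Values are MAS5 signals, linear intensities that had been scaled to a common trimmed mean of 250 on every array, and tests used log2(signal + 16). A probe set entered the test when it reached the 40th percentile of its array on at least 5 arrays, which kept 9601 probe sets and 5 of the 9 transporter probe sets. One array stood apart: the median correlation of insulin implant replicate 6 with the other arrays was 0.981, against 0.985 to 0.988 for the rest, and it also had the most of the liver transcript Alb (1742, against 42.9 to 842 on the other arrays). The kidney identity of the samples was plain from proximal tubule markers, 26 of 27 of which passed the filter, among them the phosphate transporter gene Slc34a1 and the endocytic receptor gene Lrp2. Xist, the X-inactivation transcript, separated the groups without overlap, at 42.4 to 70.5 in the insulin implant group and 0.8 to 2 in the normal group. Insulin implant and high Xist therefore cannot be told apart in any comparison below; the 7 transporter genes themselves lie on autosomes in the RefSeq annotation.

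No transporter probe set passed the test between groups. In limma, 0 of the 5 had an adjusted p under 0.05, beside 1 of 9601 probe sets, or 0.0104%, in the whole fit. At an unadjusted p under 0.05 there were 2 of 5, Slc5a2 and Slc2a2, both lower in the insulin implant group; over all probe sets 5.36% reached this level, 2.93% with a lower and 2.44% with a higher value. The lower values of this pair were known from earlier results on these arrays when the genes were chosen, so their count is not independent evidence. The groups overlapped for all 9 transporter probe sets, whereas they did not overlap for 1.04% of all probe sets tested.

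**Figure D1:**
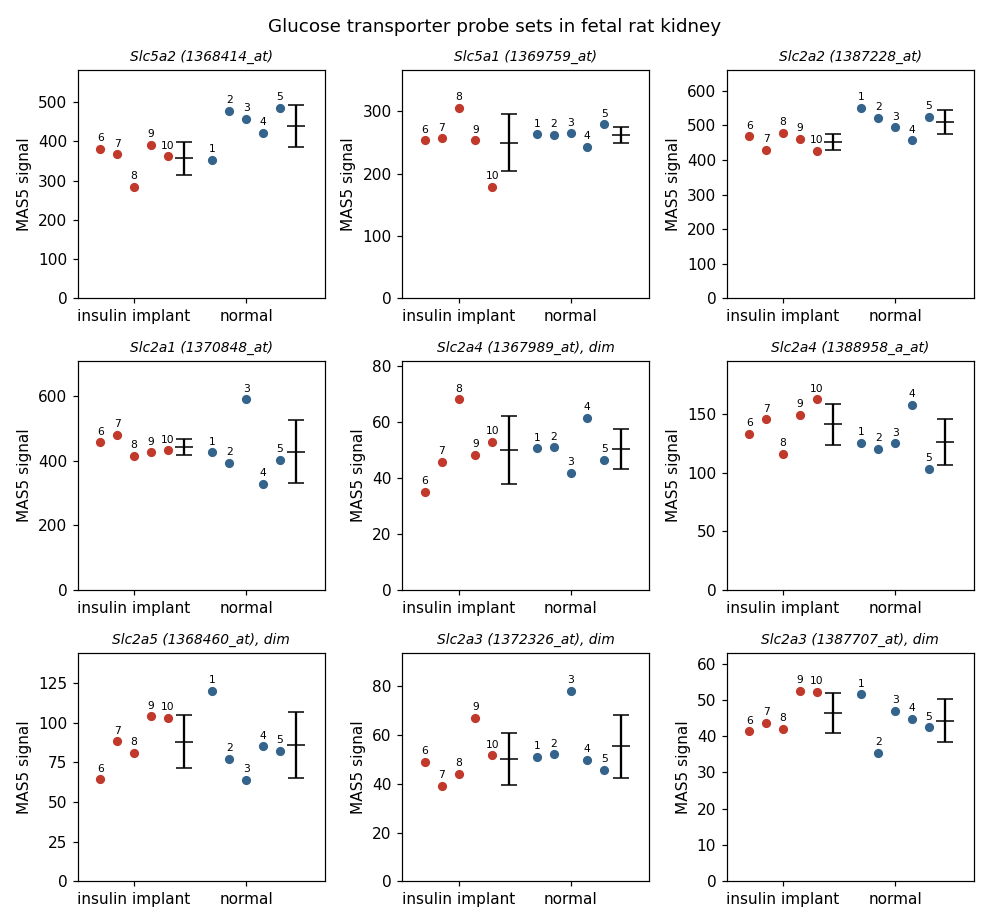
MAS5 signal (vertical axes, linear, from 0) of the 9 transporter probe sets on each array, for 5 insulin implant and 5 normal kidneys; numbers are replicates, and bars beside the points give mean ± SD. Slc5a2 and Slc2a2 have lower means in the insulin implant group, with 1 low normal array each (replicate 1 for Slc5a2, replicate 4 for Slc2a2), and panels marked dim lie below the filter.

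Slc5a2, the main luminal glucose cotransporter, had signals of 381.7, 367.3, 284.8, 391.0 and 361.8 in insulin implant replicates 6 to 10, against 353.7, 478.0, 457.7, 421.9 and 485.8 in normal replicates 1 to 5. The insulin implant arrays were all below the normal median of 457.7, and the groups overlapped through normal replicate 1 alone. The means were 357 ± 42.2 in the insulin implant group and 439 ± 53.9 in the normal group (SD, n = 5 each). The log2 difference was -0.29 ± 0.10 (SE), or -18.0% with a 95% interval of -29.0% to -5.28%, and it did not pass (limma, unadjusted p = 0.0104, adjusted p = 0.870). Without insulin implant replicate 8, the lowest array, it was -0.21, and without normal replicate 1 it was -0.36.

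Slc5a1, the high-affinity cotransporter of the late proximal tubule, stood at 253.8, 257.1, 305.8, 253.4 and 179.3 in the insulin implant group, against 263.2, 262.9, 265.1, 243.4 and 279.4 in the normal group. Normal arrays lay close together, with a coefficient of variation of 4.88%, while insulin implant arrays spread more widely (18.1%), from replicate 10 at the low end to replicate 8 at the high end. Replicate 8, which had the least Slc5a2 of all arrays, thus had the most Slc5a1. The log2 difference of Slc5a1 was -0.09 ± 0.11 (limma, adjusted p = 0.973), and its 95% interval of -19.4% to 10.2% covers a difference as large as that measured for Slc5a2. Without insulin implant replicate 10 the log2 difference was 0.021, and without insulin implant replicate 8 it was -0.16.

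Slc2a2, the low-affinity carrier of the blood side that liver and pancreatic beta cells also use, had signals of 468.5, 430.0, 478.2, 460.7 and 426.9 in the insulin implant group, against 550.8, 521.2, 494.0, 457.0 and 524.3 in the normal group. As for Slc5a2, every insulin implant array was below the normal median (521.2), and here normal replicate 4 lay within the insulin implant range. The means were 453 ± 23.2 in the insulin implant group and 509 ± 35.6 in the normal group (SD, n = 5 each). The log2 difference of -0.16 ± 0.06, or -10.7% (95% interval -18.6% to -2.02%), did not pass (limma, unadjusted p = 0.0202, adjusted p = 0.907).

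Liver also expresses Slc2a2, and liver transcripts were present in these kidneys. All 7 tested liver markers, of 12 on the array, were higher in the insulin implant group, while 49.1% of all probe sets were lower. At an unadjusted p under 0.05 there were 4, beside 2.44% of all probe sets with a higher value, and 0 passed adjustment. High signals on the insulin implant arrays alone were enough to pass the filter, so these counts are not independent of it. The summed signal of the 7 ran from 663 to 4690 in the insulin implant group, against 473 to 1791 in the normal group. The acute phase gene Hp ran from 129.9 to 1180.4 in the insulin implant group and from 91.6 to 198.1 in the normal group, and the fibrinogen gene Fgg from 71.5 to 611.1 in the insulin implant group and from 45.6 to 134.9 in the normal group. The median log2 difference of the list was 0.85, and 0.52 without insulin implant replicate 6. Without the pair of arrays with the most Alb, insulin implant replicate 6 and normal replicate 4, the log2 difference of Slc2a2 was -0.21 (limma, unadjusted p = 0.00609, adjusted p = 0.623). Normal replicate 4 was also the normal array with the least Slc2a2. Without that array alone the log2 difference of Slc2a2 was -0.20 (limma, unadjusted p = 0.00629, adjusted p = 0.805). Without insulin implant replicate 6 alone it was -0.18 (limma, unadjusted p = 0.0196, adjusted p = 0.735). With the mean of the liver genes as a covariate it was -0.16 (limma, unadjusted p = 0.0646). The part of liver RNA in the Slc2a2 signal was not tested beyond these values.

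Slc2a1, the ubiquitous carrier of basal glucose uptake, did not differ in level beyond its spread: 457.8, 480.7, 416.4, 426.5 and 433.3 in the insulin implant group and 426.1, 393.9, 591.1, 328.9 and 404.2 in the normal group. The spread itself was unequal, with a coefficient of variation of 5.88% in the insulin implant group and 22.8% in the normal group, where replicate 3 was the highest and replicate 4 the lowest of all 10 arrays. The log2 difference was 0.07 ± 0.11 (95% interval -11.4% to 24.1%; limma, adjusted p = 0.977). It was 0.19 without normal replicate 3 (limma, unadjusted p = 0.0339, adjusted p = 0.9996) and -0.017 without normal replicate 4.

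**Figure D2:**
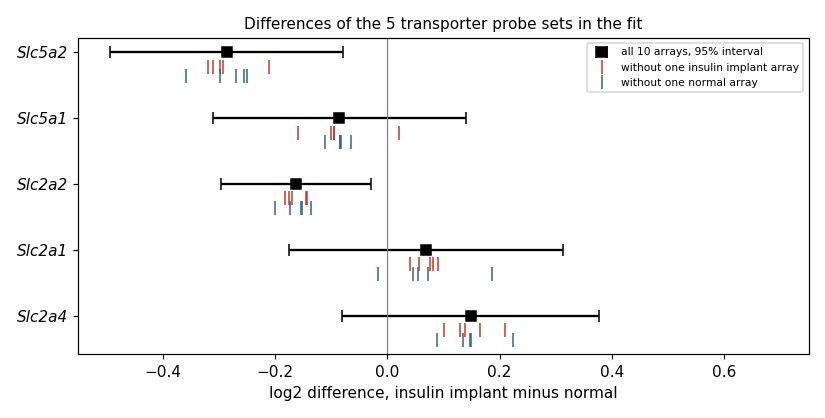
Log2 difference (horizontal axis, insulin implant minus normal) of the 5 transporter probe sets in the fit: squares with bars give the value from all 10 arrays and its 95% interval, red and blue ticks the value without 1 insulin implant or 1 normal array. The intervals of Slc5a2 and Slc2a2 lie below 0 before adjustment for 9601 probe sets, and the ticks of Slc5a1 and Slc2a1 fall on both sides of 0.

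Normal replicate 3, the array with the most Slc2a1, also had the highest mean over a list of hypoxia response genes. Slc2a1 is a known target of that response. The comparison of these arrays was chosen after their values were seen. Of 17 tested hypoxia genes, 14 had their highest normal signal in replicate 3, 2 in replicate 5 and 1 in replicate 2. The share of all probe sets that were highest in replicate 3 was not counted. Higd1a was lowest there among normal arrays, at 837 against 862.2 to 930.3. Eno1, Ndrg1, Pgk1 and Vegfa were highest there among normal arrays but below the highest insulin implant array. The mean log2 value of the list was 9.76 there, against 9.36 to 9.51 on the other normal arrays and 9.41 to 9.48 on the insulin implant arrays. The prolyl hydroxylase gene Egln3 stood at 247.5 in normal replicate 3, against 127.1 to 187.1 in the other normal samples and 132.7 to 180.9 in the insulin implant group. Ankrd37, an ankyrin repeat gene induced by hypoxia, stood at 195.7 there, against 87.2 to 124.6 in the other normal samples and 79.8 to 97.1 in the insulin implant group. Slc2a3, also a hypoxia target, had its highest signal in the same array on 1 of its probe sets. Between groups, the hypoxia list had 6 higher and 11 lower members, 0 of them past an unadjusted p of 0.05, and a median log2 difference of -0.058. That median was -0.019 without normal replicate 3 and -0.088 without normal replicate 4.

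Endothelium, which carries GLUT1, and red cells are other possible sources of Slc2a1 transcript in bulk kidney. At their brightest probe sets, all 4 tested erythroid genes were higher in the insulin implant group, none past an unadjusted p of 0.05. Their summed signal was 7106 to 9078 there and 6054 to 7519 in the normal group. Over all probe sets, 49.1% were lower. A second Slc4a1 probe set was lower, with means of 110 in the insulin implant group and 132 in the normal group. Its log2 difference was -0.24 ± 0.09 (limma, unadjusted p = 0.0229, adjusted p = 0.911). A dimmer Tfrc probe set differed by -0.04 ± 0.17. Of 8 tested endothelial genes, 2 were higher and 6 lower. The part of either cell type in the Slc2a1 signal was not tested.

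Slc2a4, the insulin-responsive carrier, was measured by a pair of probe sets that did not rank the arrays alike. The brighter one gave 133.4, 145.6, 116.2, 149.3 and 162.6 in the insulin implant group, against 125.3, 120.2, 125.0, 157.7 and 103.4 in the normal group. Its log2 difference was 0.15 ± 0.11, or 10.9% (95% interval -5.41% to 29.9%; limma, adjusted p = 0.973), with values from 0.088 without normal replicate 5 (limma, unadjusted p = 0.422) to 0.22 without normal replicate 4 (limma, unadjusted p = 0.0447, adjusted p = 0.889). Without the pair of arrays with the most Alb it was 0.24 (limma, unadjusted p = 0.0428, adjusted p = 0.764). The dimmer one lay below the filter on every array, at 35.2 to 68.2 in the insulin implant group and 42.0 to 61.5 in the normal group, a log2 difference of -0.02 (exact permutation p = 0.905). Among skeletal muscle markers, 1 gene of 10 passed the filter, Myh1, with a median signal of 1032.55 on its brightest probe set. Myh1 was lower there (log2 difference -0.09 ± 0.12), while Acta1 had a median signal of 13.35. Among adipose markers, 1 gene of 5 passed it, Lpl, which was also lower (-0.09 ± 0.10), and Lep had a median of 3.05.

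Slc2a5, the fructose carrier, stood near the filter, reaching the 40th percentile on 4 arrays, and was not in the fit. Its signals were 64.2, 88.1, 80.9, 104.0 and 102.8 in the insulin implant group and 120.0, 77.3, 64.1, 85.0 and 82.3 in the normal group, with a log2 difference of 0.04 (exact permutation p = 0.825). Of 4 intestinal markers, Mep1a, a brush border protease gene that kidney also expresses, was the 1 that passed the filter and was lower, and Fabp2 and Apoa4 had median signals of 5.85 and 4.65. Slc2a3, the high-affinity neuronal carrier, was dim on both probe sets, with 49.0, 39.2, 44.0, 67.0 and 51.7 in the insulin implant group and 51.1, 52.1, 78.1, 49.8 and 45.6 in the normal group on the first. Its log2 difference was -0.11 there and 0.05 on the second (exact permutation p = 0.476 and 0.587). On the first it was -0.0013 without normal replicate 3, -0.043 without insulin implant replicate 7 and -0.19 without insulin implant replicate 9. The smallest p that 5 against 5 arrays can give is 0.00794. At such low signals a difference was not detectable unless large, so these values do not show that the groups were alike.

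Slc5a2 and Slc2a2 were then set beside other proximal tubule transcripts of the same arrays. In bulk kidney, fewer tubule cells and less RNA per tubule cell cannot be told apart. Of 26 tested proximal tubule genes other than the transporters, 22 were lower and 4 higher in the insulin implant group, with a median log2 difference of -0.06, while 49.1% of all probe sets were lower, with a median of 0.00200. At an unadjusted p under 0.05 there were 5 lower and 0 higher, beside 2.93% and 2.44% of all probe sets, and 0 passed adjustment. Without single arrays the median ran from -0.11 (without insulin implant replicate 8) to -0.047, and it was -0.099 without normal replicate 3. The organic cation transporter gene Slc22a2 had the smallest p: its signal was 94.4 ± 17.3 in the insulin implant group and 130 ± 4.86 in the normal group (SD, n = 5 each), without overlap (limma, adjusted p = 0.517). It was followed by the acyl-CoA synthetase gene Acsm2 (log2 difference -0.17 ± 0.06) and the bicarbonate cotransporter gene Slc4a4 (-0.15 ± 0.06), while Lrp2 (0.03 ± 0.05) and the brighter probe set of Slc34a1 (0.04 ± 0.05) were on the other side. A dimmer probe set of Slc34a1 gave -0.17 ± 0.08.

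The mean log2 value of these 26 genes was 9.70 ± 0.07 in the insulin implant group and 9.79 ± 0.05 in the normal group (SD, n = 5 each), a difference of -0.09. Relative to that mean, Slc5a2 stood at -1.16 ± 0.23 in the insulin implant group and -0.97 ± 0.17 in the normal group, so that -0.19 of its log2 difference remained beside the list. The groups overlapped on this scale (-1.54 to -0.97 and -1.23 to -0.83), and without insulin implant replicate 8 the remainder was -0.10. For Slc2a2 the values were -0.82 ± 0.10 in the insulin implant group and -0.76 ± 0.11 in the normal group, a remainder of -0.07. Without normal replicate 1 that remainder of Slc2a2 was -0.034, and without insulin implant replicate 10 it was -0.028. For Slc5a1 the remainder over all 10 arrays was 0.0086. These relative values are descriptions with no test, since the lower values of both genes were known beforehand.

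**Figure D3:**
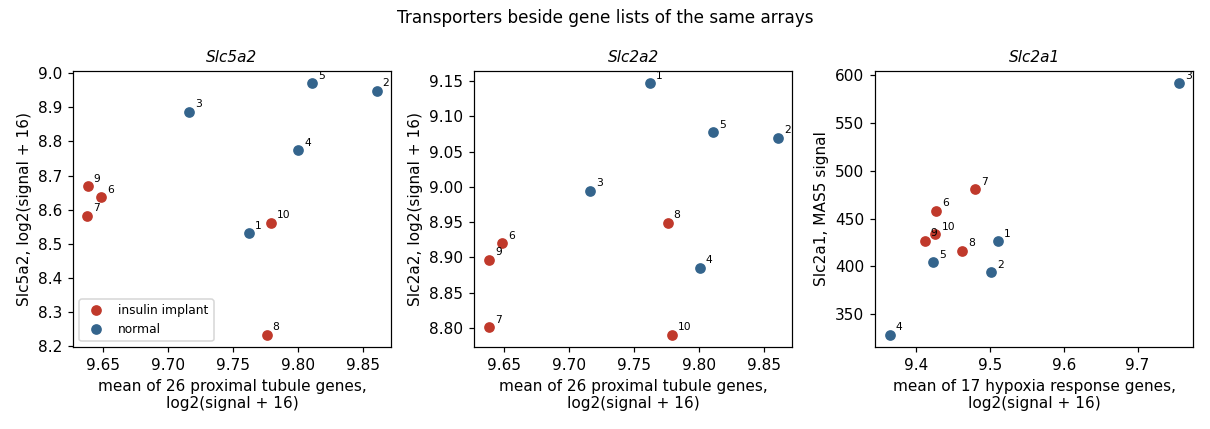
Left and middle: log2(signal + 16) of Slc5a2 and Slc2a2 (vertical) against the mean of 26 proximal tubule genes (horizontal) on each array; right: Slc2a1 signal against the mean log2 value of 17 hypoxia response genes. Numbers are replicates, red insulin implant and blue normal; insulin implant replicate 8 is lowest for Slc5a2 at a tubule mean within the normal range, and normal replicate 3 is highest on both axes of the right panel.

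Genes that act with the transporters are given list by list, against the background of 5.36% of all probe sets at an unadjusted p under 0.05. Other members of the SLC2 and SLC5 families had 3 tested genes of 5 on the array, 1 higher and 2 lower. The intracellular hexose carrier gene Slc2a8 stood at 129 ± 14.7 in the insulin implant group and 154 ± 29.0 in the normal group (limma, unadjusted p = 0.0823), and the vitamin transporter gene Slc5a6 and the inositol transporter gene Slc2a13 differed by -0.0070 and 0.0031 on the log2 scale. Among 8 genes of SGLT partners and the sodium gradient, 3 were higher and 5 lower, none past an unadjusted p of 0.05. Pdzk1ip1, which encodes MAP17, the small partner that SGLT2 needs for activity, stood at 602 ± 61.2 in the insulin implant group and 655 ± 34.8 in the normal group, a log2 difference of -0.12 ± 0.07. Atp1b1, a subunit of the sodium pump that keeps up the gradient, differed by 0.09 ± 0.05.

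Of 7 tested transcription factors known to act on hexose transporter genes, 2 were higher and 5 lower. The lipogenic regulator gene Srebf1 was the 1 past an unadjusted p of 0.05, at 404 ± 42.4 in the insulin implant group and 318 ± 52.6 in the normal group (log2 difference 0.34 ± 0.10; limma, adjusted p = 0.746). Hnf4a, a nuclear receptor of proximal tubule and liver, differed by -0.12 ± 0.10. In GLUT4 vesicle traffic, 4 of 11 genes were higher and 7 lower. Vamp2, the vesicle SNARE of GLUT4 fusion, stood at 265 ± 32.4 in the insulin implant group and 219 ± 33.1 in the normal group (0.26 ± 0.11; limma, adjusted p = 0.918), and was the 1 past an unadjusted p of 0.05.

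Of 4 tested genes that regulate GLUT1 at the cell surface, from 5 on the array, 2 were higher and 2 lower. The other, Arrdc4, lay below the filter and was not in the fit. It ran from 42.2 to 74.1 in the insulin implant group and from 75.6 to 107.6 in the normal group. These ranges did not overlap, as for 1.04% of all probe sets tested. Txnip, whose protein promotes GLUT1 internalization, stood at 1194 ± 259 in the insulin implant group and 1675 ± 158 in the normal group (SD, n = 5 each), a log2 difference of -0.51 ± 0.13 (limma, adjusted p = 0.540), the 1 member past an unadjusted p of 0.05, with the groups overlapping between 1437 and 1480. The 8 tested genes of intracellular hexose handling had 5 higher and 3 lower members and 0 past that level. Hexokinase 1 (Hk1), which traps glucose in the cell, differed by 0.12 ± 0.12 and ketohexokinase (Khk), which does so for fructose, by -0.10 ± 0.08; Hk2 lay below the filter, at 61.5 ± 16.4 in the insulin implant group and 63.7 ± 12.4 in the normal group (SD, n = 5 each). Of the remaining marker lists, the counts of higher and lower tested genes were 2 and 6 for the loop of Henle and distal tubule, 6 and 3 for the collecting duct, 6 and 2 for leukocytes and 1 and 3 for neurons. At an unadjusted p under 0.05 these held 1 lower gene of the loop and distal tubule and 2 higher genes of the collecting duct, and 0 genes of any list passed adjustment.

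**Figure D4:**
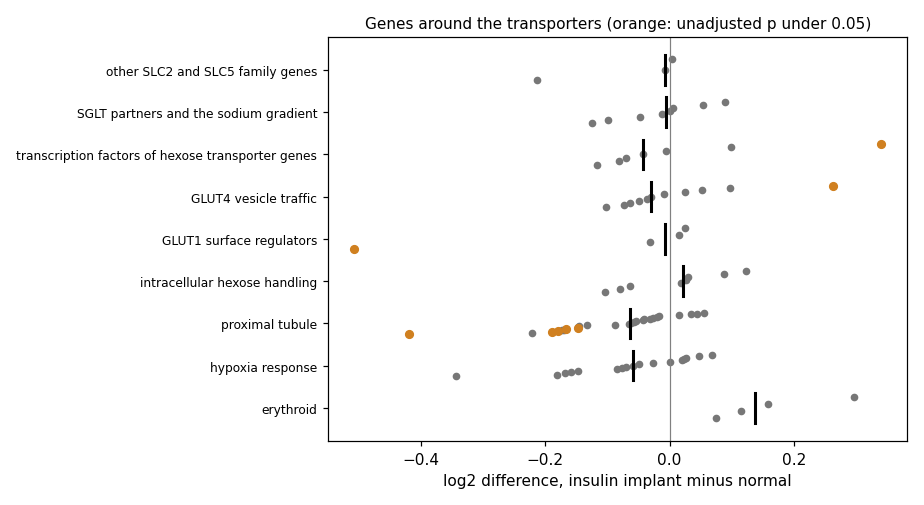
Log2 differences (horizontal axis, insulin implant minus normal) of tested genes in 9 lists around the transporters, 1 point per gene at its brightest probe set, orange where the unadjusted p was under 0.05, with a black bar at the list's median. The proximal tubule points lie mostly left of 0, and Txnip (-0.51), Srebf1 (0.34) and Vamp2 (0.26) stand apart in their lists.

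Genes were also ranked by how closely they followed a transporter from array to array, as Pearson's r of log2 values over the 10 arrays after each group was centred on its own mean. For Slc2a1 the closest were Ero1a, the endoplasmic reticulum oxidase that is induced in hypoxia (r = 0.98), the Golgi GTPase gene Rab33b (0.95) and Vsig10l (0.94). For Slc5a2 they were the lysosomal mannosidase gene Man2b1 (0.94), Ints6l (0.93) and the signal transducer gene Smad4 (0.90), and for Slc2a2 Rap1gds1 (0.93), the esterase gene Esd (0.89) and Smim10l1 (0.89). These are the highest among the tested probe sets with 1 symbol, fewer than 9601, with those of the transporter itself left out. They were picked as the highest of many over only 10 arrays, so values of this size are a description of the arrays and were not tested. Slc2a1 and Ero1a were both highest in normal replicate 3, and their r was not computed without it. The median r over the same probe sets was 0.0075 for Slc5a2, -0.017 for Slc2a2 and -0.0061 for Slc2a1. On the probe set ranked here, Ero1a stood at 328.1 in normal replicate 3, against 234.4 to 274.5 in the other normal samples. In the insulin implant group it ran from 263.9 to 282.6. A dim Ero1a probe set below the filter went the other way, at 31.3 in normal replicate 3. It ran from 35 to 58.6 in the other normal samples and from 24.3 to 44.8 in the insulin implant group.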

How the data were processed

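The deposited values were linear intensity signals per probe set and array, made by the authors with MAS5, per the submitters' processing notes; the sources used here name neither version nor settings. The mean of each array, trimmed by 2% at each end, was 250, and values were used as deposited. Of the 15923 probe sets, GEO's platform annotation gave 1 symbol for 12789, several for 312 and none for 2822; symbols were updated by Entrez identifier (GRCr8 table). The 57 control probe sets were left out.

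Groups were compared on log2(signal + 16) with limma 3.58.1 in R 4.3.3 (lmFit, eBayes with an intensity trend; two-sided, Benjamini-Hochberg over 9601 probe sets), tested on simulated data. Probe sets below the filter had exact two-sided permutation tests. Lists are described by counts and medians over the brightest probe set per gene. Named were the 7 genes, at most 3 genes per list with an unadjusted p under 0.05, partner genes fixed by name, and the 3 genes most like Slc5a2, Slc2a2 and Slc2a1. A few other list members are named for their values. The members and lists were chosen with earlier results of these data known. The number of arrays limits the precision. Figures used Python 3.11.15 and matplotlib 3.10.9.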

Additional observations from a re-analysis of the deposited data

Results flagged for a closer look

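In 18 group-wise checks of the transporter probe sets, 2 arrays lay far from the other 4 of their group by Dixon's test, for which chance gives about 1 in 20. Slc5a2 was 284.8 in insulin implant replicate 8, where the next array of that group was 361.8. Slc2a3, on its brighter probe set, was 78.1 in normal replicate 3, where the next was 52.1.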

How the results depend on the processing

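No transporter probe set passed the adjusted threshold under any of the 22 alternatives. Slc5a2 kept its direction in all of them (log2 difference -0.36 to -0.21) and so did Slc2a2 (-0.21 to -0.14). The count at an unadjusted p under 0.05 was 1 with the liver covariate, 0 with the exact rank test, 3 without the pair of arrays with the most Alb, and between 1 (without normal replicate 1, where Slc2a2 was lost) and 3 (without normal replicate 3 or 4) without single arrays. Signs turned for values near 0. Slc2a1 was -0.029 without the pair of arrays with the most Alb, and without single arrays it ran from -0.017 to 0.19 and Slc5a1 from -0.16 to 0.021. The dimmer Slc2a4 probe set was 0.13 without the pair of arrays with the most Alb and ran from -0.11 to 0.070 without single arrays, Slc2a5 from -0.042 to 0.15 and the second Slc2a3 probe set from -0.0039 to 0.094. The count over all probe sets was 2 with a common median, 5 without a filter, 4 with array weights, and 0 without the intensity trend, with the liver covariate, without the pair of arrays with the most Alb and by rank test (362 at an unadjusted p under 0.05); without single arrays it ran from 0 to 4, with 4 without insulin implant replicate 6, 2 without normal replicate 5 and 0 without normal replicates 1, 2, 3 or 4 or insulin implant replicates 7 or 9. Without a filter 828 probe sets had an unadjusted p under 0.05, against 515; more were tested. The cause of the other changes was not tested. No paired analysis was possible because the groups share no replicate numbers. Dim probe sets, Slc2a3 and Slc2a5 among them, are limited by signals close to the floor.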
